A study of Danio rerio with 8 samples.

Results

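The genes described here are 43 axon guidance ligands and receptors of the zebrafish, listed by family and symbol. They comprise 27 ligands (11 class 3 semaphorins, 4 slits, 3 netrins, 3 ephrin-A, 4 ephrin-B and 2 repulsive guidance molecule genes) and 16 receptors (2 robo genes, 2 netrin receptors, 4 neuropilins, 3 plexins, 4 Eph receptors and neo1a). All 43 were found among the 31901 genes of the count table, and 38 passed the filter on low counts. RNA was sequenced from GFP-positive cells of larvae with a mechanical spinal cord lesion (lesioned, n = 4) and from larvae without one (unlesioned, n = 4). Lesioned larvae were collected 1 day after the lesion, and both groups were 4 days old. Larvae of both groups carried BAC(pdgfrb:Gal4ff)ncv24;UAS:GFP, so that the promoter of pdgfrb, the beta receptor for platelet-derived growth factor, drives GFP through Gal4. The labels describe the sorted cells as myoseptal and perivascular. The number of larvae per library and the number of clutches are not stated, so p-values cover variation from library to library that may be technical.

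Guidance cues are secreted or membrane-bound proteins that growing axons, and also migrating vessel and mesenchymal cells, read through receptors at their surface. Class 3 semaphorins are secreted and mostly repel, through neuropilins that bind them and plexins that signal. Slits repel through Robo receptors. Netrins attract through Dcc and repel through Unc5. Ephrins stay bound to the membrane and signal on contact with Eph receptors, and repulsive guidance molecules bind neogenin. The comparison gives the level of each gene in the sorted GFP-positive cells, and its difference between lesioned and unlesioned larvae. The sorted cells also carried markers of other cell types, given below. A level can therefore not be assigned to pdgfrb reporter cells alone.

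Gene totals ranged from 20811678 to 23754652 counts in the lesioned and from 19552807 to 25358885 counts in the unlesioned libraries. Libraries 3 and 4 of both groups stood apart from libraries 1 and 2. Their mitochondrial share was 13.8% to 16.8%, against 8.91% to 10.2%, and they held 64 to 158 reads on synthetic spike-in sequences, against 0 to 3. Of all 15759 genes tested in edgeR, 3 were higher in lesioned and 0 lower at an adjusted p under 0.05. The reporter's own gene pdgfrb had 195 CPM in lesioned and 213 CPM in unlesioned cells, where CPM are counts scaled to library size and to the library's TMM factor. Fibroblast and tendon markers (10 of 10 found) summed to 17380 to 26620 CPM in lesioned and 13840 to 29620 CPM in unlesioned libraries, led per kilobase by tgfbi. Mural markers (10 of 10 found), led by acta2, summed to 4300 to 7515 CPM in lesioned and 7538 to 22770 CPM in unlesioned libraries. The defining pericyte genes abcc9 and kcnj8 were low, at 4.94 and 4.51 CPM in lesioned and 6.15 and 5.51 CPM in unlesioned cells. In such bulk samples, fewer cells of a type and less RNA per cell cannot be told apart. Markers of neurons (9 of 10 found, led by tubb5) summed to 36.8 to 106 CPM in lesioned and 54.4 to 70.3 CPM in unlesioned libraries. Those of endothelium (8 of 10 found, led per kilobase by egfl7) summed to 27.8 to 53.2 CPM in lesioned and 39.9 to 56.1 CPM in unlesioned libraries. The glial sum (9 of 10 found) was 108 to 220 CPM in lesioned and 251 to 554 CPM in unlesioned libraries, and most of it was glula. Skeletal muscle markers (8 of 10 found, led by actc1b) summed to 359 to 4028 CPM in lesioned and 843 to 1689 CPM in unlesioned libraries. Epidermal markers (10 of 10 found, led by krt4) summed to 435 to 3397 CPM in lesioned and 147 to 4882 CPM in unlesioned libraries, and were higher in libraries 3 and 4 than in libraries 1 and 2 of each group. Notochord markers (8 of 8 found, led by epyc) summed to 27.1 to 130 CPM in lesioned and 6.01 to 96.5 CPM in unlesioned libraries. Leukocyte markers (8 of 10 found, led by il1b) summed to 9.45 to 82.5 CPM in lesioned and 7.80 to 116 CPM in unlesioned libraries, and erythroid markers (5 of 7 found, led by hbae1.1) to 2.35 to 3.81 CPM in lesioned and 4.70 to 9.38 CPM in unlesioned libraries.

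In 4 guidance genes all lesioned libraries lay on one side of all unlesioned ones in TMM-scaled CPM. The netrin gene ntn1b, the semaphorin gene sema3c and the neuropilin gene nrp2a lay above the unlesioned libraries, and the semaphorin gene sema3d lay below them. For sema3d the separation rests on the TMM factors, which were 1.09 in lesioned 1 and 0.822 in unlesioned 3. By library size alone, sema3d was higher in lesioned 1 than in unlesioned 3. None of the 38 tested members passed over all genes in edgeR (0 higher and 0 lower, where the background over all genes was 0.019% higher and 0.0% lower). The same 4 genes were the members at an unadjusted p under 0.05 in edgeR, 3 higher (7.89%) and 1 lower (2.63%). Over all genes tested that share was 6.07% higher and 5.48% lower, so the members' shares were near the background. Groups did not overlap for 3 members that were higher and 1 that was lower, where 5.32% and 3.91% of all genes were so. DESeq2 called 1 member higher, ntn1b, and 1 lower, sema3d, among the 28 members to which it gave an adjusted p (3.57% each way). Its background was 3.4% of 8077 genes higher and 3.0% lower, so these shares too were near the background. limma voom called 0 members. Of the 38 fitted log2 fold changes 11 lay above 0 and 27 below, with a median of -0.18, against 47.7% above 0 and 52.3% below over all genes and a median of -0.04. With library size as the only scaling the median moved to 0.12 over all genes and to -0.03 over the members. There 16 members lay above 0 (42.1%) and 22 below, against 56.8% of all genes above 0. Directions are therefore given relative to TMM scaling.

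**Figure D1:**
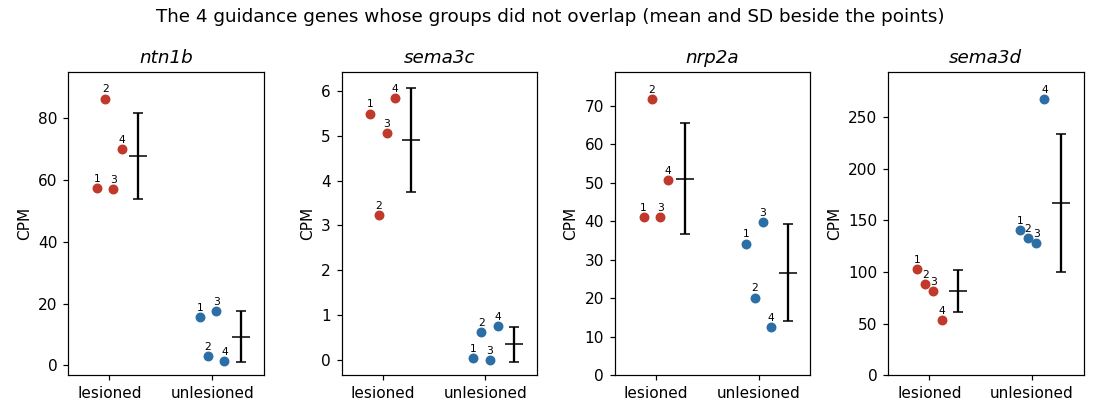
CPM of ntn1b, sema3c, nrp2a and sema3d in each library, with lesioned left of unlesioned, library numbers above the points and the mean ± SD beside them (n = 4 each). In each panel the 4 lesioned points lie on one side of the 4 unlesioned points. The narrowest gap is that of nrp2a, between 41.0 CPM in lesioned 1 and 39.9 CPM in unlesioned 3.

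The netrin ntn1b (ENSDARG00000022531, GRCz11 chromosome 3 from 25708549 to 25814097, minus strand) encodes one of the zebrafish netrin-1 proteins, diffusible cues known from the floor plate of the spinal cord. It had 57.5, 86.5, 57.0 and 70.1 CPM in lesioned 1 to 4, against 15.5, 2.93, 17.5 and 1.46 CPM in unlesioned 1 to 4. The lowest lesioned library held over 3 times the highest unlesioned one, and the unlesioned libraries themselves split into a pair near 16 and a pair near 2 CPM. Means were 67.8 ± 13.9 CPM in lesioned and 9.35 ± 8.32 CPM in unlesioned cells (SD, n = 4 each). The fitted log2 fold change was 2.86 ± 0.70 (SE; edgeR, unadjusted p = 0.00212, adjusted p = 0.174). Fitted on libraries 1 and 2 alone it was 2.96, and on libraries 3 and 4 alone 2.81. Because the groups did not overlap, both of these fits had to have the same sign, here and for sema3d, sema3c and nrp2a below. Their agreement in sign is therefore no further evidence. In DESeq2 the adjusted p was 0.00155, and over all settings tried it ranged up to 0.383 in edgeR without lesioned 1.

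Its duplicate ntn1a (ENSDARG00000105112, chromosome 6 from 19804048 to 19926657, minus strand) was the more abundant of the pair per kilobase of exon in all 8 libraries. It had 202, 225, 152 and 284 CPM in lesioned 1 to 4, against 129, 127, 132 and 274 CPM in unlesioned 1 to 4. Lesioned 1 to 3 lay above unlesioned 1 to 3, but unlesioned 4 was nearly as high as lesioned 4, and the log2 fold change was 0.38 ± 0.31 (adjusted p = 0.720 in edgeR). Without unlesioned 4 it was 0.74 (adjusted p = 0.356 in edgeR), and without lesioned 4 it was 0.23 (adjusted p = 0.910 in edgeR). Per kilobase of exon, ntn1b made up 26.8%, 33.1%, 32.6% and 24.1% of the netrin-1 pair in lesioned 1 to 4, against 13.4%, 2.88%, 14.6% and 0.679% in unlesioned 1 to 4. This share was looked at after the values of ntn1b had been seen and was not tested. How the authors' counting treated reads that match both copies is not known here. The third netrin, ntn4, a basement membrane netrin, had 286 of its counts in unlesioned 3 and at most 33 in any other library, and its log2 fold change was -2.51 with all libraries and 1.105 without unlesioned 3.

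**Figure D2:**
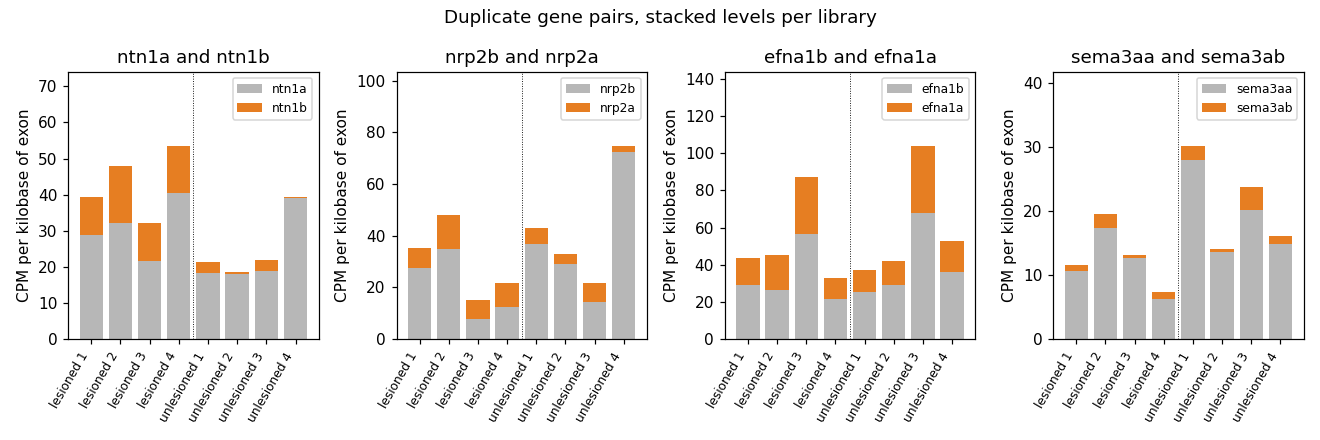
Levels in CPM per kilobase of exon of 4 duplicate gene pairs, stacked, in each library, with the lesioned libraries left of the dotted line and the unlesioned ones right of it. The upper segment of the netrin-1 pair, ntn1b, is 24.1% to 33.1% of the bar in lesioned and 0.679% to 14.6% in unlesioned libraries, and the ephrin-A1 bars are tallest in library 3 of both groups.

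Class 3 semaphorins were the largest family by level, with 28.8% of the summed level of all members, and also by number, with 11 of the 43 genes. Summed per kilobase they gave 84.6, 87.0, 70.7 and 98.7 CPM per kilobase in lesioned 1 to 4, against 129, 124, 155 and 155 CPM per kilobase in unlesioned 1 to 4, and the groups did not overlap. Of 11 genes 9 were tested, and 0 passed in edgeR (0.019% higher and 0.0% lower over all genes). Log2 fold changes lay above 0 for 2 (22.2%) and below for 7 (77.8%), against 47.7% and 52.3% of all genes. The sum without sema3d was 41.8 to 79.7 in lesioned and 60.4 to 110 CPM per kilobase in unlesioned libraries, and there the groups overlapped. Neither sum was tested.

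The gene sema3d (ENSDARG00000017369, chromosome 18 from 9171778 to 9238675), whose product in zebrafish guides early axon tracts, had the highest level per kilobase of exon of the 43 genes in unlesioned cells and the 4th highest in lesioned cells. It had 103, 88.6, 81.4 and 53.6 CPM in lesioned 1 to 4, against 140.5, 133, 128 and 267 CPM in unlesioned 1 to 4. Lesioned 4 was the lowest of all libraries and unlesioned 4 the highest. Means were 81.6 ± 20.8 CPM in lesioned and 167 ± 66.7 CPM in unlesioned cells (SD, n = 4 each). The fitted log2 fold change was -1.03 ± 0.31 (SE; unadjusted p = 0.00686, adjusted p = 0.229 in edgeR and 0.0429 in DESeq2). Fitted on libraries 1 and 2 alone it was -0.51, and on libraries 3 and 4 alone -1.496. Over all settings its adjusted p ranged up to 0.426, in edgeR without lesioned 4. In TMM-scaled CPM the summed mural markers were also lower in every lesioned than in every unlesioned library. They were so only just (7515 CPM in lesioned 1, 7538 CPM in unlesioned 3). The mural sum was highest in unlesioned 4 (22770 CPM). The glial and erythroid sums were lower in every lesioned library as well. The part of these marker sets in the difference of sema3d was not tested.

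The gene sema3c (ENSDARG00000034300, chromosome 4 from 22613625 to 22652944) encodes a semaphorin known from outflow tract and vessel development. It was scarce, with 129, 79, 112 and 135 counts in lesioned 1 to 4, against 1, 12, 0 and 16 counts in unlesioned 1 to 4. In CPM these were 5.49, 3.24, 5.06 and 5.84 in lesioned 1 to 4, against 0.0456, 0.629, 0 and 0.752 in unlesioned 1 to 4, and the 0 of unlesioned 3 allows up to 0.144 CPM (3 counts, counting error only). Every lesioned library held several times the highest unlesioned value. Means were 4.91 ± 1.16 CPM in lesioned and 0.357 ± 0.389 CPM in unlesioned cells (SD, n = 4 each). The fitted log2 fold change was 3.76 ± 1.22 (SE; edgeR, unadjusted p = 0.0111, adjusted p = 0.252). DESeq2 gave it no adjusted p. Libraries 1 and 2 alone gave 3.69, and libraries 3 and 4 alone 3.89.

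Of the other semaphorins, sema3bl, a relative of sema3b whose entry was assigned only by its flanking genes, had 37.0, 21.2, 12.5 and 71.5 CPM in lesioned 1 to 4, against 31.6, 81.2, 140 and 84.8 CPM in unlesioned 1 to 4. Lesioned 2 and 3 lay below the lowest unlesioned library, lesioned 1 just above it and lesioned 4 among the unlesioned values (log2 fold change -1.25 ± 0.56, adjusted p = 0.433 in edgeR). The gene sema3aa encodes a semaphorin 3A, the classic collapsing factor of growth cones. It had 49.4, 80.0, 58.5 and 29.2 CPM in lesioned 1 to 4, against 129, 63.1, 93.0 and 68.4 CPM in unlesioned 1 to 4 (-0.70 ± 0.34, adjusted p = 0.482 in edgeR). Its groups overlapped only through lesioned 2, which lay above unlesioned 2 and unlesioned 4.

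Duplicates of semaphorin 3F, which acts mainly through neuropilin-2, were both measured. The gene sema3fa had 31.3, 43.4, 29.3 and 79.7 CPM in lesioned 1 to 4, against 93.5, 92.1, 80.8 and 33.5 CPM in unlesioned 1 to 4. Library 4 ran opposite to libraries 1 to 3 of its group in both groups, and the log2 fold change was -0.71 ± 0.41 (adjusted p = 0.571 in edgeR). Libraries 1 and 2 alone gave -1.31, and libraries 3 and 4 alone 0.01. The gene sema3fb had 24.0, 35.2, 30.1 and 30.4 CPM in lesioned 1 to 4, against 39.4, 41.8, 57.8 and 26.8 CPM in unlesioned 1 to 4 (-0.47 ± 0.28, adjusted p = 0.593 in edgeR). Here too unlesioned 4 was the low one of its group. The gene sema3e, whose product can signal through plexin D1 without a neuropilin, had 34.0, 38.4, 31.6 and 76.8 CPM in lesioned 1 to 4, against 40.7, 33.6, 46.6 and 11.2 CPM in unlesioned 1 to 4 (0.45 ± 0.45, adjusted p = 0.788 in edgeR). Of the remaining members, sema3b averaged 4.06 CPM in lesioned and 6.08 CPM in unlesioned cells, and sema3ab 3.53 CPM in lesioned and 5.82 CPM in unlesioned cells. The genes sema3ga and sema3gb did not pass the filter and had at most 24 counts in any library.

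**Figure D3:**
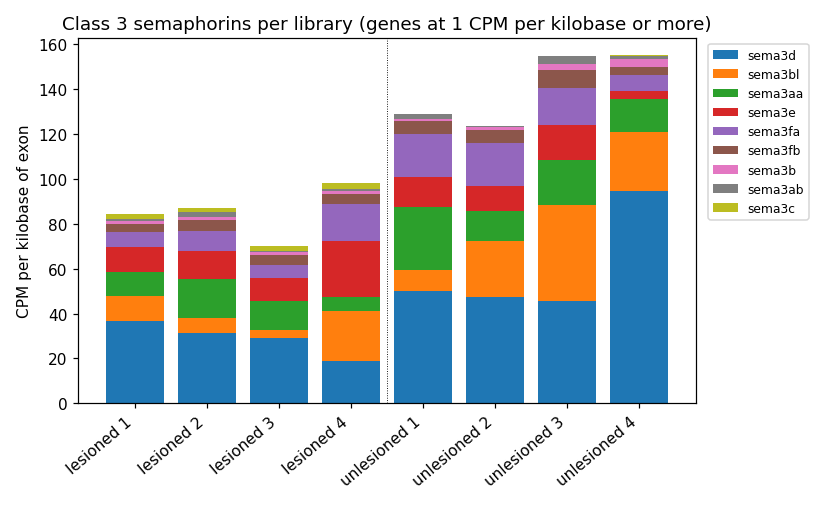
Stacked levels of the 9 class 3 semaphorin genes at 1 CPM per kilobase of exon or more, in CPM per kilobase, for lesioned libraries left of the dotted line and unlesioned libraries right of it. The lesioned bars end between 70.7 and 98.7 and the unlesioned bars between 124 and 155, counted with all 11 genes, and sema3d is the lowest segment.

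Of the slits, slit3 was the most abundant, with 88.3, 169, 110 and 127 CPM in lesioned 1 to 4, against 117, 86.2, 121 and 57.0 CPM in unlesioned 1 to 4 (log2 fold change 0.37 ± 0.29, adjusted p = 0.712 in edgeR). It made up 76.2% of the slit level per kilobase. The gene slit2, a midline repellent, had 31.4, 64.4, 33.0 and 16 CPM in lesioned 1 to 4, against 56.9, 38.03, 22.5 and 42.4 CPM in unlesioned 1 to 4 (-0.14 ± 0.43, adjusted p = 0.951 in edgeR). The groups overlapped for both genes. The gene slit1a averaged 8.63 ± 4.95 CPM in lesioned and 9.01 ± 2.78 CPM in unlesioned cells, while slit1b had 123 counts in unlesioned 3 and 0 to 2 in the other 7 libraries.

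Ephrin-A1 genes were among the highest ligands. The gene efna1b had 55.3, 50.04, 107.5 and 40.9 CPM in lesioned 1 to 4, against 48.5, 55.6, 129 and 69.4 CPM in unlesioned 1 to 4 (log2 fold change -0.25 ± 0.39, adjusted p = 0.884 in edgeR). Its duplicate efna1a had 37.9, 48.9, 78.1 and 29.2 CPM in lesioned 1 to 4, against 30.04, 32.7, 91.8 and 41.8 CPM in unlesioned 1 to 4 (-0.02 ± 0.42, adjusted p = 0.997 in edgeR). Both were highest in library 3 of each group, as was the ephrin-B gene efnb2b, with 52.1 CPM in lesioned 3 and 61.3 CPM in unlesioned 3 and between 9.17 and 24.5 CPM elsewhere (-0.41 ± 0.58, adjusted p = 0.872 in edgeR). The duplicate efnb2a, an arterial marker in vessels, had 36.7, 81.3, 39.7 and 32.0 CPM in lesioned 1 to 4, against 49.7, 31.6, 49.2 and 48.1 CPM in unlesioned 1 to 4 (0.09 ± 0.33, adjusted p = 0.963 in edgeR). Of the lower ephrins, efna5a averaged 20.03 CPM in lesioned and 26.3 CPM in unlesioned cells, and efnb3b 7.81 CPM in lesioned and 11.6 CPM in unlesioned cells. The gene efnb1 averaged 2.88 ± 1.503 CPM in lesioned and 1.18 ± 0.566 CPM in unlesioned cells (1.28 ± 0.82, adjusted p = 0.620 in edgeR). Libraries 1 and 2 alone gave 2.09, and libraries 3 and 4 alone 0.31.

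Repulsive guidance molecules and their receptor neogenin varied less between libraries than most of the set. The gene rgmb, which also acts as a co-receptor of bone morphogenetic proteins, had 153.5, 171, 164 and 74.0 CPM in lesioned 1 to 4, against 133, 139, 152 and 189 CPM in unlesioned 1 to 4 (log2 fold change -0.13 ± 0.28, adjusted p = 0.929 in edgeR). Lesioned 4 alone was low. The gene rgma averaged 50.9 ± 10.6 CPM in lesioned and 48.6 ± 13.5 CPM in unlesioned cells (0.07 ± 0.28, adjusted p = 0.967 in edgeR). For neo1a, the neogenin gene, values were 74.97, 93.2, 81.3 and 56.1 CPM in lesioned 1 to 4, against 75.6, 85.5, 81.8 and 99.4 CPM in unlesioned 1 to 4 (-0.16 ± 0.22, adjusted p = 0.860 in edgeR). Among the 36 members at 1 CPM per kilobase or more, neo1a had the smallest coefficient of variation over all 8 libraries, 16.1%, followed by rgma at 22.8% and rgmb at 23.4%. The Eph receptor gene epha4a came next at 24.4%. By the highest over the lowest library, rgmb (2.56) was less steady than epha4a (1.87). The largest coefficients of variation belonged to ntn1b (85.5%) and sema3c (97.3%).

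Neuropilins led the receptors. The gene nrp2b had 132, 167, 37.0 and 59.7 CPM in lesioned 1 to 4, against 175, 139, 68.8 and 346 CPM in unlesioned 1 to 4. Unlesioned 4 was far above the rest, the groups overlapped, and the log2 fold change was -0.89 ± 0.55 (adjusted p = 0.610 in edgeR) and -0.38 without unlesioned 4 (adjusted p = 0.901 in edgeR). The duplicate nrp2a (ENSDARG00000096546, chromosome 1 from 5606460 to 5746030, minus strand) had 41.0, 71.7, 41.1 and 50.6 CPM in lesioned 1 to 4, against 34.2, 20.2, 39.9 and 12.6 CPM in unlesioned 1 to 4. Means were 51.1 ± 14.4 CPM in lesioned and 26.7 ± 12.6 CPM in unlesioned cells (SD, n = 4 each). The fitted log2 fold change was 0.94 ± 0.38 (SE; unadjusted p = 0.0326, adjusted p = 0.366 in edgeR and 0.169 in DESeq2). Libraries 1 and 2 alone gave 1.05, and libraries 3 and 4 alone 0.87. Both encode neuropilin-2, the receptor for semaphorin 3F and 3C, and nrp2b had the higher level per kilobase of exon in all 8 libraries. Neuropilin-1 genes were lower, with nrp1a at 17.6 ± 13.6 CPM in lesioned and 20.2 ± 6.07 CPM in unlesioned cells and nrp1b at 5.51 ± 3.73 CPM in lesioned and 4.75 ± 2.08 CPM in unlesioned cells.

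Plexins carry the signal that neuropilins cannot pass on by themselves. The gene plxna3, a partner of semaphorin 3A and 3F receptors, had 16.5, 27.6, 38.2 and 13.8 CPM in lesioned 1 to 4, against 25.1, 36.3, 42.7 and 56.8 CPM in unlesioned 1 to 4 (log2 fold change -0.74 ± 0.39, adjusted p = 0.517 in edgeR). At each library number the lesioned value was the lower one, although the groups overlapped and no label states that same-numbered libraries are pairs. With same-numbered libraries fitted as pairs the log2 fold change was -0.785 (adjusted p = 0.393 in edgeR). The gene plxna1a averaged 13.9 ± 3.15 CPM in lesioned and 15.1 ± 4.87 CPM in unlesioned cells (-0.12 ± 0.36, adjusted p = 0.952 in edgeR). The entry for plxnd1, an endothelial plexin, spans 1194 exon bases, against 6135 and 6597 for the other plexin genes, and held 1 count in all. It appears to cover only a piece of the gene, so nothing is read from it.

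Both netrin receptor genes of the set were low. The gene dcc had 1 to 3 counts in every library, 0.0649 ± 0.0265 CPM in lesioned and 0.0862 ± 0.0523 CPM in unlesioned cells, at or below the limit that a count of 0 allows (3 counts, 0.123 to 0.157 CPM, counting error only). The gene unc5b had 5, 33, 70 and 73 counts in lesioned 1 to 4, against 61, 23, 175 and 2 counts in unlesioned 1 to 4 (log2 fold change -0.66 ± 1.203, adjusted p = 0.910 in edgeR). Neither gene was near the level of the netrin ligands, which summed to 32.6 to 53.9 CPM per kilobase in lesioned and 19.0 to 39.4 CPM per kilobase in unlesioned libraries, against at most 1.17 CPM per kilobase for both receptors together. These are not the only receptors that netrins may use. Other Unc5 genes lie outside the set. The gene neo1a, grouped here with the repulsive guidance molecules, averaged 12.2 CPM per kilobase in lesioned and 13.7 CPM per kilobase in unlesioned cells. Of the Robo receptors, robo1 lay near the median level of tested genes and robo2 below it. The gene robo1 averaged 28.7 ± 6.91 CPM in lesioned and 36.7 ± 12.9 CPM in unlesioned cells (-0.36 ± 0.32, adjusted p = 0.758 in edgeR), and robo2 6.50 ± 4.23 CPM in lesioned and 6.62 ± 4.80 CPM in unlesioned cells (-0.03 ± 0.71, adjusted p = 0.997 in edgeR).

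Of the Eph receptors, epha4a, a receptor for both ephrin classes, averaged 25.7 ± 7.98 CPM in lesioned and 31.1 ± 5.39 CPM in unlesioned cells (log2 fold change -0.27 ± 0.30, adjusted p = 0.816 in edgeR). The gene ephb3a averaged 21.8 ± 3.39 CPM in lesioned and 24.3 ± 10.1 CPM in unlesioned cells (-0.16 ± 0.34, adjusted p = 0.926 in edgeR). The gene ephb4a, the venous receptor of ephrin-B2, had 25.2, 52.5, 15.3 and 2.16 CPM in lesioned 1 to 4, against 27.5, 25.8, 3.32 and 8.04 CPM in unlesioned 1 to 4. Libraries 1 and 2 of both groups lay above libraries 3 and 4, and the groups overlapped. The gene ephb2b averaged 12.04 ± 4.47 CPM in lesioned and 20.3 ± 11.5 CPM in unlesioned cells (-0.76 ± 0.47, adjusted p = 0.610 in edgeR).

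**Figure D4:**
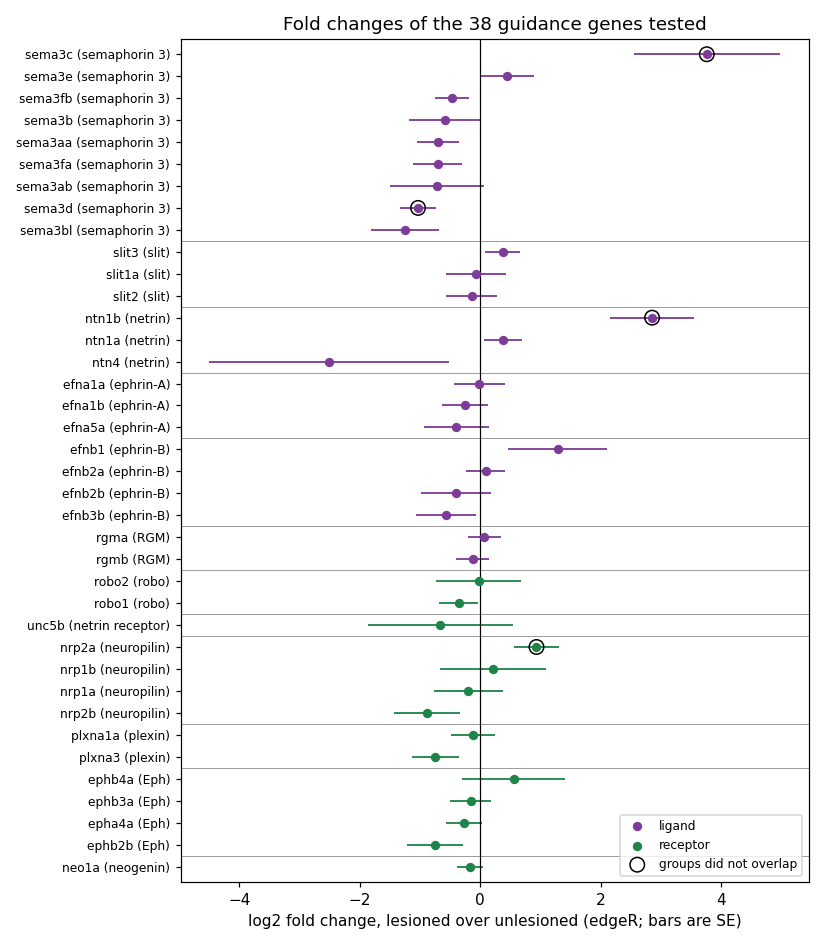
log2 fold changes (lesioned over unlesioned) of the 38 members tested in edgeR, by family, with bars of 1 SE, ligands in purple and receptors in green. Circles mark the 4 genes whose groups did not overlap, sema3c at 3.76, ntn1b at 2.86, nrp2a at 0.94 and sema3d at -1.03, and none of the 38 passed over all genes.

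Levels were compared between genes as CPM per kilobase of exon, averaged over the 8 libraries (± SD over them). The order was led by sema3d (44.2 ± 23.0), efna1b (36.4 ± 16.6), rgmb (36.3 ± 8.51), nrp2b (29.4 ± 20.4) and ntn1a (27.2 ± 9.30). The groups had different orders. In lesioned cells rgmb came first (34.7 ± 11.1), then efna1b (33.2 ± 15.7), ntn1a (30.8 ± 7.80), sema3d (29.0 ± 7.38) and nrp2b (20.6 ± 12.7 CPM per kilobase). In unlesioned cells sema3d came first (59.4 ± 23.7), then efna1b (39.6 ± 19.2), nrp2b (38.1 ± 24.6), rgmb (37.9 ± 6.21) and sema3bl (25.9 ± 13.6 CPM per kilobase). The order over both groups went on with efna1a (19.2), sema3bl (18.4), slit3 (17.0), sema3aa (15.4), efnb2b (13.6), neo1a (12.9), sema3e (12.8) and sema3fa (12.4 CPM per kilobase). These 13 genes reached 10 CPM per kilobase, 11 of them ligands and 2 receptors. Another 23 lay between 1 and 10, and 7 lay below 1. The median over all tested genes was 3.76 CPM per kilobase, and sema3d stood at the 90.4th percentile of them. Neighbours in this order were not separated. Of 42 neighbouring pairs, 1 (unc5b over slit1b) kept its order in all 8 libraries. Ligands made up 77.9% of the summed level of all members, with 257 to 307 CPM per kilobase in lesioned and 269 to 406 CPM per kilobase in unlesioned libraries. Receptors summed to 52.4 to 113 CPM per kilobase in lesioned and 68.9 to 140.3 CPM per kilobase in unlesioned libraries.

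**Figure D5:**
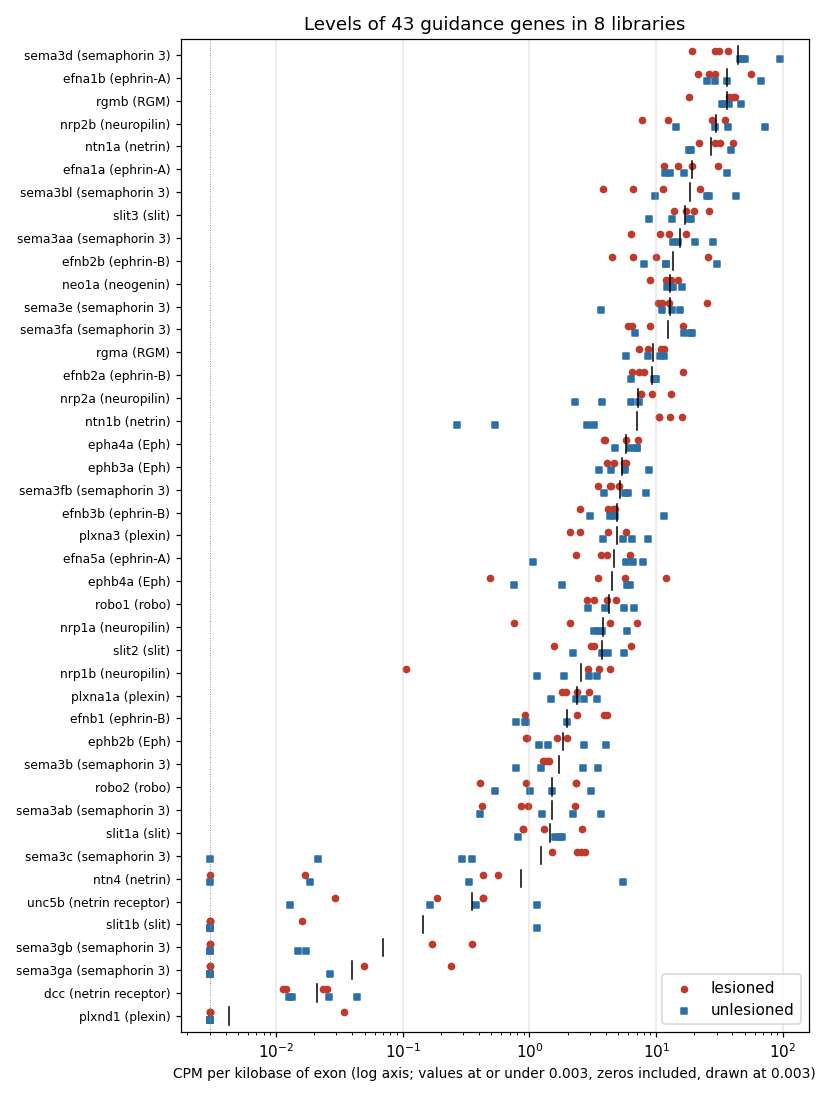
Level of each of the 43 genes in every library, in CPM per kilobase of exon on a log axis, ordered by the mean over 8 libraries (black tick), with lesioned libraries as red circles above unlesioned libraries as blue squares. Values of neighbouring genes overlap down the whole order, and ntn1b and sema3c show lesioned points set apart to the right of the unlesioned ones.

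Duplicates of a gene differed in level. Of 9 pairs compared per kilobase of exon, sema3aa exceeded sema3ab, sema3fa exceeded sema3fb, slit1a exceeded slit1b and ntn1a exceeded ntn1b in all 8 libraries. The second copy exceeded the first in all 8 libraries for nrp2b over nrp2a and efna1b over efna1a. The copy sema3aa took 86.6% to 96.8% of its pair in lesioned and 84.7% to 97.1% in unlesioned libraries. The copy efna1a took 34.0% to 42.3% of its pair in lesioned and 30.6% to 34.8% in unlesioned libraries, ranges that overlapped only narrowly. The summed level of the pair varied with library number. No order held in all libraries for sema3ga and sema3gb, nrp1a and nrp1b, or efnb2a and efnb2b.

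Other ligands and receptors of these families, listed by membership, gave no calls. Of 81 genes listed 68 were found and 48 tested, and 0 passed over all genes in edgeR, 0 at an unadjusted p under 0.05, 0 in DESeq2 (21 with an adjusted p) and 0 in limma voom. The background at an unadjusted p under 0.05 in edgeR was 6.07% higher and 5.48% lower. In DESeq2 it was 3.4% and 3.0% of 8077 genes. Groups did not overlap for 0 that were higher and 1 that was lower (2.08%), against 5.32% and 3.91% of all genes. Their median log2 fold change was -0.29, against -0.04 over all genes. There were 18 above 0 (37.5%) and 30 below (62.5%), against 47.7% and 52.3% of all genes. The most abundant was rgmd, another repulsive guidance molecule gene, at 121 ± 39.9 CPM in lesioned and 85.3 ± 21.6 CPM in unlesioned cells (0.51 ± 0.30, adjusted p = 0.593 in edgeR). The lowest p belonged to 3 genes that did not pass the test. The cell adhesion gene chl1b of the L1 family had 9.22 ± 4.76 CPM in lesioned and 20.9 ± 12.8 CPM in unlesioned cells. The Eph receptor gene ephb2a had 0.475 ± 0.506 CPM in lesioned and 3.25 ± 2.42 CPM in unlesioned cells. The gene hjv, a hemojuvelin of the same family as rgma, had 3.03 ± 4.17 CPM in lesioned and 0.317 ± 0.504 CPM in unlesioned cells, with 205 of its counts in lesioned 3. Its log2 fold change was 3.23 with all libraries, 1.57 without lesioned 3 and 5.37 without unlesioned 3.

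Of 68 intracellular effectors of guidance receptors, 65 were found and 57 tested, with 0 passing over all genes in edgeR and 0 in limma voom. At an unadjusted p under 0.05 in edgeR 1 was higher (1.75%) and 4 were lower (7.02%), against 6.07% and 5.48% of all genes. The median log2 fold change was -0.04, the same as over all genes. DESeq2 called 0 effectors higher and 1 lower (2.70%) among the 37 with an adjusted p, against 3.4% and 3.0% of 8077 genes. Groups did not overlap for 0 effectors that were higher and 4 that were lower (7.02%), against 5.32% and 3.91% of all genes. The signalling regulator rgs3a had 93.7 ± 18.4 CPM in lesioned and 165 ± 44.5 CPM in unlesioned cells (adjusted p = 0.234 in edgeR). The adaptor nck1a had 119 ± 22.6 CPM in lesioned and 205 ± 51.0 CPM in unlesioned cells (adjusted p = 0.243 in edgeR).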

How the data were processed

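Raw read counts per gene were deposited without normalization by the authors, from 8 libraries. Per the submitters' processing notes, the tools were bcl2fastq 2.19.1, GSNAP and featureCounts 1.6.2, with build GRCz11. The header of the count table names featureCounts 1.6.3, Ensembl 92, unstranded counting (strand setting 0) and reads of mapping quality 1 or more, so reads of an antisense gene cannot be told apart. None of the 43 members shares exon bases with another gene (0 of 43). Counts were taken gene by gene in each library, with exon length as the table's own length value.

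The table holds identifiers only. Of the 43 members, 6 were matched by a zebrafish symbol and 36 by a symbol in capitals together with at least 2 shared genes among 15 neighbours on each side in RefSeq (GRCz12tu). The remaining gene, sema3bl, was taken as the single semaphorin entry between the same flanking genes, although its tabled symbol is SEMA3G. The lists, the members and the other choices were made with earlier results of these data known.

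edgeR 4.0.16 (R 4.3.3) compared lesioned with unlesioned over 15759 genes after filterByExpr, with TMM factors, a robust quasi-likelihood F-test (two-sided) and Benjamini-Hochberg adjustment over all genes, called under 0.05. The 92 spike-in entries were left out. Alternatives were DESeq2 1.42.0, limma 3.58.1 (voom), other scalings and filters, a replicate block, a term for libraries 1 and 2 against 3 and 4, and leaving out each library. The code was tested on data simulated with a dispersion of 0.1, well under that of these libraries. The simulation therefore does not show which changes could be found here. The common dispersion of 0.561 (biological coefficient of variation 74.9%) limits precision more than depth does, and the reads carry no molecular identifiers, so floors of 3 counts cover counting error only. Same-numbered libraries deviated together (correlations of 0.244, 0.233, 0.276 and 0.162, each above 0.1), so same-numbered libraries were treated as pairs in the block. No label states such pairs, and crossed numbers within libraries 1 and 2 correlated as well (0.247 for lesioned 1 with unlesioned 2, 0.22 for lesioned 2 with unlesioned 1).

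Values in every library are given for the 12 most abundant members per kilobase, the 10 with the lowest p and the 2 most abundant of each family, with means for a few of these and other members by mean or range. From the other lists the 3 genes with the lowest p and the most abundant one are named except that 1 effector is not reported here, and from each marker list the most abundant one. Sequences of the members are not used here.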

Additional observations from a re-analysis of the deposited data

Results flagged for a closer look

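In 79 groups of 4 libraries with enough counts, the gap between the most extreme library and its nearest neighbour was compared with the group's range, and 8 values stood out. The limit used gives about 1 in 20 for normally distributed values. CPM, above all those of scarce genes, need not be so distributed, so no excess is read from these 8. In unlesioned 4, sema3d had 267 CPM, against 128 to 140.5 CPM in the other unlesioned libraries, and ntn1a had 274 CPM, against 127 to 132 CPM. In lesioned 4, sema3e had 76.8 CPM, against 31.6 to 38.4 CPM in the other lesioned libraries. For efnb2a, lesioned 2 was high at 81.3 CPM, against 32.0 to 39.7 CPM, and unlesioned 2 was low at 31.6 CPM, against 48.1 to 49.7 CPM. In unlesioned 3 the further values were 2.02 CPM of efnb1 (0.799 to 0.957 CPM in the other unlesioned libraries), 13.8 CPM of ntn4 (0 to 0.838 CPM) and 5.92 CPM of slit1b (0 CPM in the other unlesioned libraries).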

How the results depend on the processing

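No guidance gene was called in edgeR or limma voom under any scaling, filter or design tried, with 0 calls when each library was left out in turn. With DESeq2, 2 of the 28 members with an adjusted p were called (ntn1b and sema3d). The other guidance genes gave 0 calls when each library was left out, and the effectors 0 there and 1 with DESeq2. Over all genes, 3 calls became 6 with no filter and 14 with the term for libraries 1 and 2 against 3 and 4. With DESeq2 they became 517, among 8077 genes with an adjusted p. Leaving out one library gave 3 to 8, the highest without unlesioned 3. With the replicate block 2 of all genes were called, and the pairing changed no member's call. Signs turned for 16 members in at least 1 setting. With library size alone, log2 fold changes were 0.027 for rgmb, 0.17 for efna1a, 0.078 for plxna1a and 0.074 for robo2. With no filter efna1a had 0.023, with the library term 0.075 and in limma voom 0.037. With the replicate block values were 0.041 for efna1a, -0.013 for efnb2a and 0.044 for robo2. Leaving out each library gave log2 fold changes of -0.64 to 0.13 for efna1b, -0.22 to 0.089 for rgmb, -0.35 to 0.47 for efna1a, -1.15 to 0.13 for efnb2b, -0.33 to 0.15 for ephb3a, -0.10 to 0.19 for rgma, -0.29 to 0.24 for efnb2a, -1.07 to 0.53 for unc5b, -0.29 to 0.068 for plxna1a, -0.32 to 0.57 for robo2 and -0.57 to 0.11 for slit2. Over all settings the values were -3.27 to 1.105 for ntn4 (above 0 only without unlesioned 3), -0.18 to 0.94 for ephb4a, -0.76 to 0.14 for nrp1a, -0.49 to 0.62 for nrp1b and -0.52 to 0.12 for slit1a. The cause of these changes was not tested.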

Other observations

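The ephrin genes efna1a, efna1b and efnb2b were each highest in library 3 of the lesioned and of the unlesioned group. Of the 38 tested members, 7 were highest in the same-numbered library of both groups (18.4%), against 32.4% of all genes tested. Among the lesioned libraries, 20 members were highest in lesioned 2 (52.6%), against 21.0% of all genes. For 18 members (47.4%) the fold change had opposite signs in libraries 1 and 2 and in libraries 3 and 4, against 36.7% of all genes. Outside the members, the endothelial marker egfl7 had 3.83, 7.59, 4.57 and 4.11 CPM in lesioned 1 to 4, against 27.4, 19.3, 19.1 and 17.4 CPM in unlesioned 1 to 4 (log2 fold change -2.05, adjusted p = 0.136 in edgeR and 2.7e-05 in DESeq2). The other endothelial markers found summed to 23.2 to 45.6 CPM in lesioned and 20.8 to 32.0 CPM in unlesioned libraries, and 0 of the 4 tested had an unadjusted p under 0.05 in edgeR.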
